A study of Saccharomyces cerevisiae with 12 samples.

Results

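The genes described here are 10 zinc homeostasis genes of budding yeast that belong to, or work beside, the regulon of the transcription factor Zap1. They were picked by systematic name from the 6691 genes of the count table, and all 10 passed the filter on low counts in every comparison. They are *ZAP1*, *ZRT1*, *ZRT2*, *ZRT3*, *ZPS1*, *ADH4*, *ZRC1*, *COT1*, *ZRG17* and *IZH1*. The list was drawn up with the low day 0 values of *ADH4*, *ZPS1* and *ZRT1* in *tra1Q3* cells in view. For that reason the day 0 difference and the changes with age, which use the day 0 libraries, are given below as descriptions without a test, and the genotypes are tested at day 3.

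RNA was sequenced from *tra1Q3* and *TRA1* cells of *S. cerevisiae* W303A at day 3 and at day 0, with 3 replicates in each of 4 groups and 12 libraries in all. The study asked how loss of Tra1 function bears on gene expression before and during aging in stationary phase. Tra1 is the subunit of the SAGA and NuA4 acetyltransferase complexes that contacts transcription activators, and *tra1Q3* carries glutamine in place of 3 arginines in or near the cleft of its PI3K domain. Per the labels, both strains are MATa and carry the alleles ade2-1, can1-100, his3-11, leu2-3, trp1-1 and ura3-1. Per the methods of the study, both also carry an integrated *URA3*-FLAG-tagged copy of *tra1Q3* or *TRA1* selected as HIS+, and the plasmid YCplac111-*DED1pr-YHR100*. The methods describe cells diluted from a saturated culture into medium without leucine and sampled at day 0 and again at day 3, in stationary phase, whereas the labels name mid-log growth in synthetic complete medium and another RNA kit. The study calls its replicates biological, but no source used here says whether they came from separate cultures, so p-values measure the spread between these libraries.

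Zinc is a cofactor of many enzymes, and yeast cells hold its free level within narrow limits. When zinc runs low, Zap1 binds zinc-responsive elements in promoters and activates genes for uptake, for release from the vacuole and for sparing of zinc, its own gene among them. When zinc is plentiful, Zap1 is inactive and surplus zinc is stored in the vacuole.

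The zinc-responsive element is a palindrome of 11 bases, made of the half-site ACCTT, any base, and the reverse complement of the half-site, AAGGT. It is the element through which Zap1 binds, so the stretches that match it are shown. The 500 bases before each start codon were read on both strands from the RefSeq R64 genome of strain S288C, at the coordinates of the count table. A stretch that differs from the 10 defined letters at no more than 1 position was found for 8 of the 10 genes, and for 4 of 17 other Zap1-linked genes. Of all 6658 promoters of that length, 1.86% held such a stretch and 0.14% an exact match. The exact matches among the 10 genes lie before *ZRT1* and *ZRG17*. The site nearest to the start codon is shown for each of the 8 genes, on the strand of the gene, with the 11 bases of the site in capitals and 9 bases on each side.
ZAP1 (chrX:333198-333226, minus strand): cagtcatctACCCTAAAGGTcatgatgaa
ZRT1 (chrVII:20765-20793, plus strand): acatatttgACCTTGAAGGTcatggaaag
ZRT2 (chrXII:404305-404333, minus strand): tttttcacaACCTTTAGGGTacattgccc
ZRT3 (chrXI:118629-118657, plus strand): gtgacaacaACCTTAAGGGTaatggactt
ZRC1 (chrXIII:756321-756349, minus strand): cttcagatgGCCTTGAAGGTgaggaatga
ZRG17 (chrXIV:699496-699524, minus strand): aaatgatgaACCTTGAAGGTatttttgtt
ZPS1 (chrXV:34335-34363, plus strand): agggttaggACCCTGAAGGTtttttgtag
IZH1 (chrIV:1434498-1434526, plus strand): tatcatgcaACCTTTAGGGTccaagccct
The sites lie between 73 bases (*ZRG17*) and 406 bases (*IZH1*) before the start codon. Further stretches with 1 differing letter lie before *ZRT1*, *ZRT2* and *ZPS1*. *ADH4* and *COT1* had no match in this window, which says only that these letters are not there. A stretch with 1 differing letter in the window of *MNT2*, 1 of the 17 further genes, lies between *MNT2* and *ADH4*. It is beyond the 500 bases read before *ADH4*. A match is a description of the reference sequence and not of binding in these W303A cells.

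Each member is a single uninterrupted reading frame, and its coordinates in the table equal those of the R64 annotation. *ZAP1* (YJL056C) lies on chrX:330431-333073, *ZRT1* (YGL255W) on chrVII:20978-22108 and *ADH4* (YGL256W) beside it on chrVII:15159-16307. *ZRT2* (YLR130C) lies on chrXII:402794-404062, *ZRT3* (YKL175W) on chrXI:118793-120304 and *ZPS1* (YOL154W) on chrXV:34658-35407. *ZRC1* (YMR243C) lies on chrXIII:754838-756166, *COT1* (YOR316C) on chrXV:906236-907555, *ZRG17* (YNR039C) on chrXIV:697614-699431 and *IZH1* (YDR492W) on chrIV:1434924-1435874. Every stretch of 100 bases within the 10 genes occurs once in the genome. *IZH1* shares 68 coding bases with YDR491C and the authors' counting took no account of strand, so reads there cannot be told apart or may be lost. The other members share no coding bases with another gene.

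The libraries held between 20662125 and 28079682 counts, and the *TRA1* gene had 43129 to 44886 normalized counts in *tra1Q3* cells and 13463 to 14455 in *TRA1* cells at day 3, a count that cannot see the substitutions. Replicate 2 of *TRA1* cells at day 3 stood apart from the other libraries of its group. The chi-square ratio between replicates (median over genes, with counting error alone at 1) was 82.8 and 85.8 for its pairs, 10.9 for the remaining pair of that group, and between 2.89 and 4.52 in the other groups. Replicates 2 and 3 of *tra1Q3* cells at day 0 held the aged-cell transcripts *SIP18* and *MLS1* at 0.857% to 1.04% of their mean in *TRA1* cells at day 3, against 0.0606% and 0.0858% in replicate 1. All 6 a-specific genes were detected in every library, as the labelled mating type implies, and so were all 4 alpha-specific genes. The summed normalized counts of the alpha-specific genes were 10984 to 13442 in *tra1Q3* cells and 2691 to 3136 in *TRA1* cells at day 3, and 19629 to 21609 in *tra1Q3* cells and 1156 to 1202 in *TRA1* cells at day 0. Those of the a-specific genes were 30456 to 37911 in *tra1Q3* cells and 7397 to 8481 in *TRA1* cells at day 3, and 62282 to 65373 in *tra1Q3* cells and 27585 to 29444 in *TRA1* cells at day 0. The part of these differences in the values below was not tested.

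At day 3, the regulator *ZAP1*, both uptake transporters, the vacuolar exporter *ZRT3*, the zinc transporter subunit *ZRG17*, and *ZPS1*, *ADH4* and *IZH1* were all lower in *tra1Q3* cells than in *TRA1* cells. Of the vacuolar importers, *COT1* was lower by less than the fold required for a call, and *ZRC1* did not pass the test. A gene was called where the log2 ratio of *tra1Q3* over *TRA1* fitted by edgeR lay beyond 1 in either direction and the p from its quasi-likelihood test, adjusted after Benjamini and Hochberg over all 6208 genes, was 0.05 or less. Of the 10 members, 8 were called lower, beside 15.6% of all genes tested. Among the 8 are *ADH4*, *ZPS1* and *ZRT1*, whose low day 0 values in the same strain brought the list forward. The share is therefore not independent of how the list was chosen. No member was called higher, beside 16.4% of all genes, and none was higher at an unadjusted p of 0.05. DESeq2 also called 8 members. The median log2 ratio was -2.43 over the members and -0.02 over all genes tested. All *tra1Q3* libraries lay below all *TRA1* libraries for 9 of the 10 members, as they did for 42.4% of all genes tested. In bulk samples such as these, fewer cells that express a gene and less RNA per cell cannot be told apart.

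**Figure D1:**
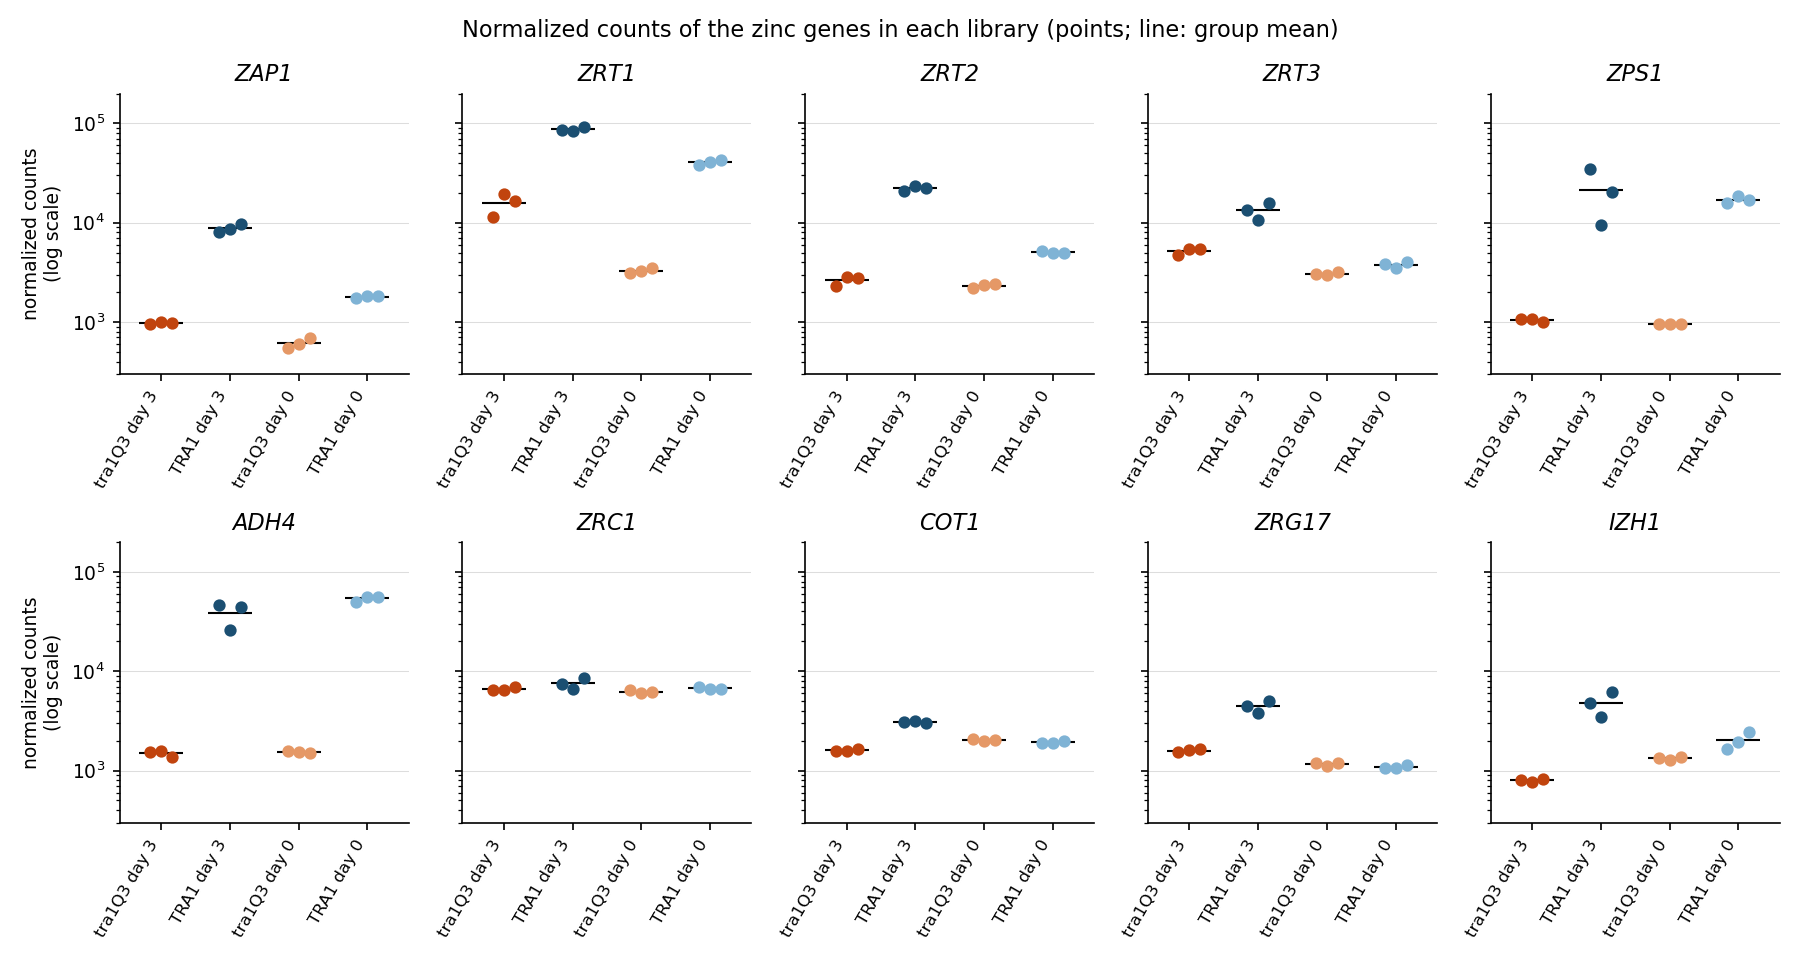
Normalized counts (log axis) of the 10 zinc genes in each of the 12 libraries, 1 panel a gene, with points for libraries and a line for the mean of each group of 3. At day 3 the points of *tra1Q3* and *TRA1* cells overlap for *ZRC1* alone, and the widest gap is that of *ADH4*, with 1378 to 1591 against 26147 to 46354 normalized counts.

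*ZAP1* encodes the activator itself. It had 955.5, 1007 and 983.5 normalized counts in the *tra1Q3* libraries of day 3, against 8099, 8617 and 9822 in the *TRA1* libraries. The groups were thus far apart and each was tight, and the mean in *tra1Q3* cells was 11.1% of that in *TRA1* cells. The log2 ratio was -3.07 (SE 0.11, adjusted p = 3.00e-06). It stayed between -3.36 and -2.99 in every alternative.

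*ZRT1* encodes the high-affinity zinc transporter of the plasma membrane and *ZRT2* the low-affinity one. *ZRT1* had 11461, 19633 and 16408 normalized counts in *tra1Q3* cells and 86468, 83670 and 91933 in *TRA1* cells at day 3. It was the most abundant member per length in both genotypes at that time, and it was still lower in every *tra1Q3* library, with a log2 ratio of -2.36 (SE 0.22, adjusted p = 7.09e-05). *ZRT2* had 2313, 2864 and 2804 normalized counts in *tra1Q3* cells and 20802, 23399 and 22504 in *TRA1* cells. Its log2 ratio was -2.96 (SE 0.13, adjusted p = 3.61e-06), so that its mean in *tra1Q3* cells was 11.96% of that in *TRA1* cells, against 18.1% for *ZRT1*. Per length, *ZRT1* exceeded *ZRT2* by 6.61 ± 1.07 times in *tra1Q3* cells and by 4.42 ± 0.36 times in *TRA1* cells (SD, n = 3 each).

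The vacuole stores zinc, with *ZRT3* encoding the transporter that releases it and *ZRC1* and *COT1* related transporters that carry it in. *ZRT3* had 4739, 5409 and 5457 normalized counts in *tra1Q3* cells and 13538, 10607 and 15877 in *TRA1* cells at day 3, with a log2 ratio of -1.26 (SE 0.16, adjusted p = 3.65e-04). This was the smallest of the 8 called differences. *COT1* had 1564, 1567 and 1667 normalized counts in *tra1Q3* cells and 3063, 3179 and 3033 in *TRA1* cells. These groups did not overlap, but the log2 ratio of -0.85 (SE 0.07, adjusted p = 4.94e-05) was within the limit of 1. *ZRC1* had 6461, 6513 and 6952 normalized counts in *tra1Q3* cells and 7519, 6680 and 8451 in *TRA1* cells. These groups overlapped, and the log2 ratio was -0.09 (SE 0.11, adjusted p = 0.51, and 0.0081 to 0.97 over the alternatives). *ZRC1* exceeded *COT1* per length by 4.12 ± 0.02 times in *tra1Q3* cells and by 2.43 ± 0.34 times in *TRA1* cells (SD, n = 3 each). *COT1* was called under scaling to library totals, which moved the median of all genes to -0.31, with a log2 ratio of -1.15.

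*ZRG17* encodes a subunit of a zinc transporter of the endoplasmic reticulum, where it works with Msc2. It had 1534, 1595 and 1634 normalized counts in *tra1Q3* cells and 4470, 3760 and 5070 in *TRA1* cells at day 3. All values in *tra1Q3* cells lay well below those in *TRA1* cells, and the log2 ratio was -1.38 (SE 0.12, adjusted p = 5.78e-05). Its partner *MSC2*, which is not among the 10, averaged 823 ± 78.0 normalized counts in *tra1Q3* cells and 1645 ± 167 in *TRA1* cells (SD, n = 3 each). It was not called, with a log2 ratio of -0.90 (SE 0.11, adjusted p = 2.98e-04).

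*ADH4* encodes an alcohol dehydrogenase that is not related in sequence to the main zinc-dependent enzymes, and *ZPS1* a protein of the cell surface. *ADH4* had 1529, 1591 and 1378 normalized counts in *tra1Q3* cells and 46354, 26147 and 44232 in *TRA1* cells at day 3. This was the largest difference among the members, with *tra1Q3* cells at 3.85% of the mean of *TRA1* cells and a log2 ratio of -4.60 (SE 0.26, adjusted p = 7.84e-06). *ZPS1* had 1071, 1078 and 1001 normalized counts in *tra1Q3* cells and 34603, 9538 and 20427 in *TRA1* cells. Its *TRA1* libraries were the most uneven of any member, yet the lowest of them was far above every *tra1Q3* library, and the log2 ratio was -4.26 (SE 0.46, adjusted p = 1.39e-04). Replicate 2 held the lowest *TRA1* value of both genes, and without it the log2 ratios were -4.83 for *ADH4* and -4.62 for *ZPS1*. Without replicate 1 of *TRA1* cells, which held the highest value, that of *ZPS1* was -3.74.

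*IZH1* encodes a membrane protein of the family of adiponectin receptors, with a known role in zinc metabolism. It had 797.4, 762.2 and 828.7 normalized counts in *tra1Q3* cells and 4826, 3480 and 6192 in *TRA1* cells at day 3. The groups did not overlap, and the log2 ratio was -2.50 (SE 0.21, adjusted p = 4.08e-05). At day 3 no member lost or gained a call, or turned its direction, when any library was left out, except that *ZRC1* stood at 0.00 without replicate 3 of *TRA1* cells.

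**Figure D2:**
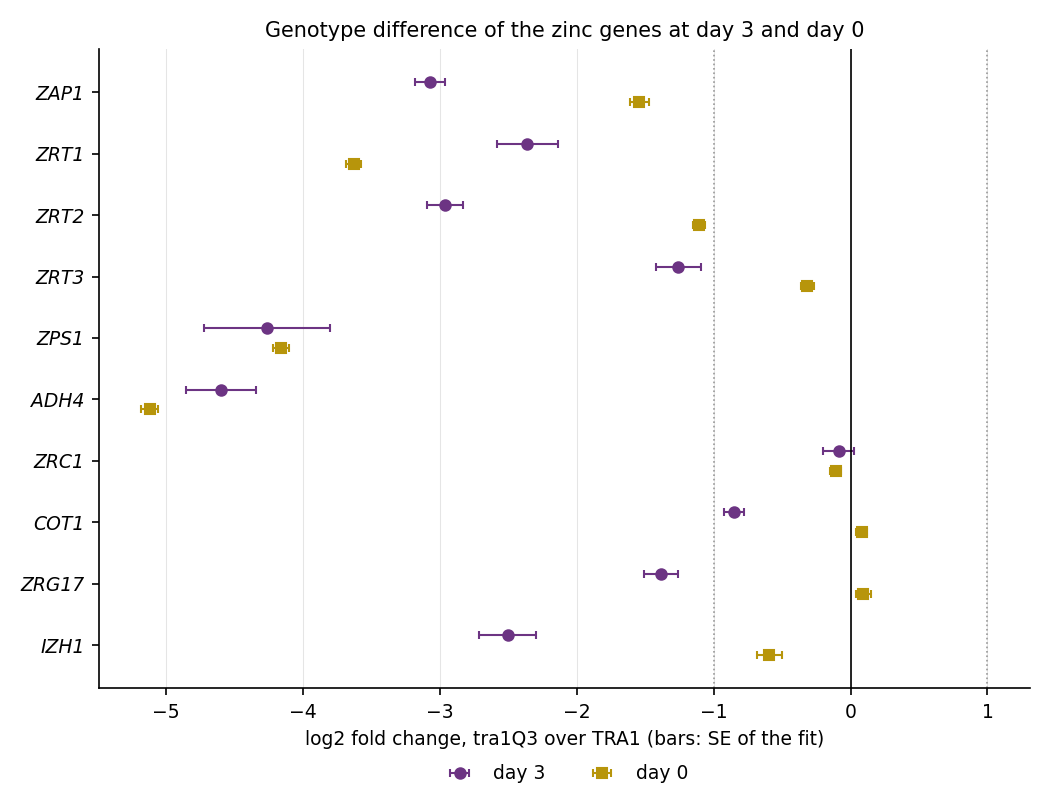
Log2 ratios of *tra1Q3* over *TRA1* cells for the 10 zinc genes at day 3 (circles) and day 0 (squares), with SE of the fit as bars and dotted lines at the limits for a call. At day 3, 8 genes lie beyond -1, and at day 0 *ADH4*, *ZPS1* and *ZRT1* lie furthest to the left at -5.12, -4.16 and -3.63.

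At day 0 fewer of the members met the limits. *ADH4*, *ZPS1*, *ZRT1*, *ZAP1* and *ZRT2* were called in the fit over 6126 genes, whereas *ZRT3*, *ZRC1*, *COT1*, *ZRG17* and *IZH1* did not. These 5 of 10 members called lower stand beside 2.76% of all genes tested, and since the first 3 are the values that brought the list forward, nothing is read from the share. The median log2 ratio was -0.85 over the members and 0.01 over all genes. For 8 members all *tra1Q3* libraries lay below all *TRA1* libraries, beside 35.3% of all genes, and for *COT1* they lay above, beside 36.2%. Scaling to library totals brought *COT1* to 0.00.

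*ADH4* had 1589, 1545 and 1511 normalized counts in *tra1Q3* cells and 50072, 56291 and 55590 in *TRA1* cells at day 0, a log2 ratio of -5.12 (SE 0.06). *ZPS1* had 954.3, 953.8 and 959.2 in *tra1Q3* cells and 15902, 18538 and 16867 in *TRA1* cells, a log2 ratio of -4.16 (SE 0.06). *ZRT1* had 3124, 3255 and 3462 in *tra1Q3* cells and 38347, 40819 and 42705 in *TRA1* cells, a log2 ratio of -3.63 (SE 0.06). In all 3 genes the replicates of each genotype lay close together, and the uneven *ZPS1* values of *TRA1* cells at day 3 had no counterpart at day 0.

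The regulator gene had a smaller day 0 difference than *ADH4*, *ZPS1* and *ZRT1*. *ZAP1* had 551.8, 608.5 and 698.2 normalized counts in *tra1Q3* cells and 1738, 1829 and 1839 in *TRA1* cells, a log2 ratio of -1.54 (SE 0.07). *ZRT2* had 2195, 2363 and 2427 in *tra1Q3* cells and 5184, 4944 and 4945 in *TRA1* cells, a log2 ratio of -1.11 (SE 0.04). The groups did not overlap for either gene. The other values lay nearer to 0, at -0.59 (SE 0.09) for *IZH1*, -0.31 (SE 0.05) for *ZRT3*, -0.11 (SE 0.04) for *ZRC1*, 0.08 (SE 0.04) for *COT1* and 0.09 (SE 0.05) for *ZRG17*. *ZRG17* and *COT1*, which were lower in *tra1Q3* cells at day 3, thus had almost the same level in both genotypes at day 0, with means of 1164 ± 46.2 and 2036 ± 32.1 normalized counts in *tra1Q3* cells and 1092 ± 48.2 and 1926 ± 35.1 in *TRA1* cells (SD, n = 3 each). With replicate 1, which held the least of the aged-cell transcripts, as the lone *tra1Q3* library of day 0, the log2 ratios were -5.08 for *ADH4*, -4.16 for *ZPS1*, -3.70 for *ZRT1*, -1.70 for *ZAP1* and -1.19 for *ZRT2*.

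With age, *ZRT1* was the 1 member of 10 that met the limits as higher at day 3 than at day 0 in *tra1Q3* cells, beside 22.7% of all 6247 genes in that fit. In *TRA1* cells 6 of 10 met them, *ZAP1*, *ZRT2*, *ZRG17*, *ZRT3*, *IZH1* and *ZRT1*, beside 20.1% of all genes. The day 3 libraries lay above all day 0 libraries for 6 members in *tra1Q3* cells, beside 44.4% of all genes, and for 7 in *TRA1* cells, beside 40.6%. The median log2 change of day 3 over day 0 was 0.16 over the members in *tra1Q3* cells and 1.19 in *TRA1* cells, while over all genes it was -0.01 in *tra1Q3* cells and 0.03 in *TRA1* cells.

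*ZAP1* was 1.59 times as high at day 3 as at day 0 in *tra1Q3* cells (log2 0.67, SE 0.09) and 4.91 times as high in *TRA1* cells (log2 2.30, SE 0.09). For *ZRT2* in *tra1Q3* cells the 3 values at day 3, between 2313 and 2864, overlapped those at day 0, between 2195 and 2427, and in *TRA1* cells it was 4.43 times as high at day 3 (log2 2.15, SE 0.09). *ZRG17* had a log2 change of 0.45 (SE 0.09) in *tra1Q3* cells and 2.02 (SE 0.10) in *TRA1* cells, and *ZRT3* one of 0.77 (SE 0.12) in *tra1Q3* cells and 1.81 (SE 0.13) in *TRA1* cells. *ZAP1*, *ZRT2*, *ZRG17* and *ZRT3* thus shared the pattern of a larger step in *TRA1* cells.

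*IZH1* and *COT1* differed between the genotypes in direction. *IZH1* had a log2 change with age of -0.74 (SE 0.18) in *tra1Q3* cells and 1.27 (SE 0.18) in *TRA1* cells. *COT1* had -0.35 (SE 0.05) in *tra1Q3* cells and 0.68 (SE 0.05) in *TRA1* cells. For both genes the day 3 libraries of *tra1Q3* cells lay below all their day 0 libraries, as did 45.3% of all genes, and those of *TRA1* cells lay above.

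Unlike the genes just described, *ZRT1* had the larger step in *tra1Q3* cells. Its normalized counts were 4.83 times as high at day 3 as at day 0 in *tra1Q3* cells (log2 2.27, SE 0.16) and 2.15 times as high in *TRA1* cells (log2 1.10, SE 0.16). Even so, its highest *tra1Q3* library at day 3, with 19633, did not reach the lowest *TRA1* library at day 0, with 38347. *ADH4*, its neighbour on the chromosome, had a day 3 mean of 0.97 times that of day 0 in *tra1Q3* cells, where the sign of its log2 change depended on the scaling, and 0.72 times in *TRA1* cells. *ZPS1* was at 1.10 times in *tra1Q3* cells and 1.26 times in *TRA1* cells, where its day 3 and day 0 libraries overlapped, and without replicate 1 of *TRA1* cells at day 3 its log2 change with age there was -0.19 in place of 0.33. The change with age of *ZRC1* differed least between the genotypes, at log2 0.09 (SE 0.08) in *tra1Q3* cells and 0.17 (SE 0.08) in *TRA1* cells.

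**Figure D3:**
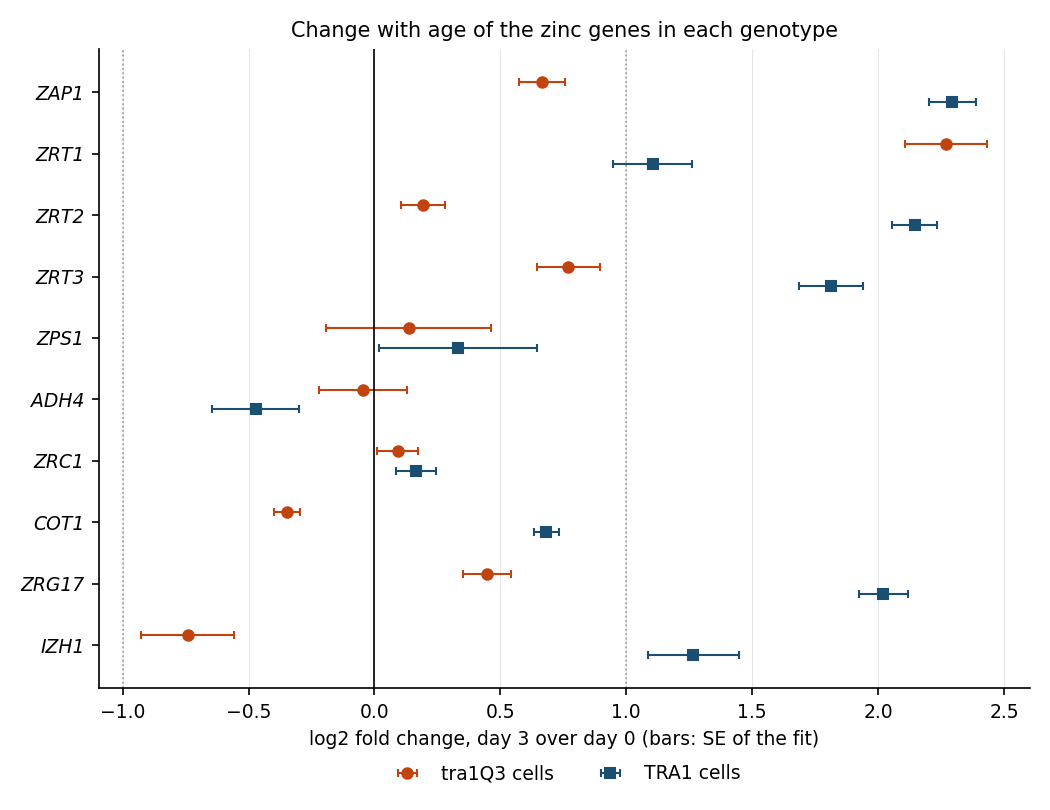
Log2 ratios of day 3 over day 0 for the 10 zinc genes in *tra1Q3* cells (circles) and *TRA1* cells (squares), with SE of the fit as bars and dotted lines at the limits for a call. In *tra1Q3* cells *ZRT1* alone lies beyond 1, at 2.27, and in *TRA1* cells 6 genes do, between 1.10 for *ZRT1* and 2.30 for *ZAP1*.

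The difference in the change with age, *tra1Q3* minus *TRA1*, was below -1 for *IZH1* (-2.01, SE 0.26), *ZRT2* (-1.95, SE 0.12), *ZAP1* (-1.63, SE 0.13), *ZRG17* (-1.57, SE 0.13), *ZRT3* (-1.04, SE 0.17) and *COT1* (-1.03, SE 0.07). It was above 1 for *ZRT1* (1.17, SE 0.22). The remaining values were 0.43 (SE 0.24) for *ADH4*, -0.07 (SE 0.11) for *ZRC1* and -0.20 (SE 0.45) for *ZPS1*. At the score of 2.5 that the study used, 0 of the 10 members were called with edgeR or with DESeq2, beside 4.37% of all genes. An unadjusted p under 0.05 with edgeR was reached by 7 of the 10, beside 4461 of all 6247 genes. The 7 values beyond 1 in either direction also had an adjusted p of 0.05 or less, as had 31.5% of all genes. These counts share the day 0 libraries in which the list was noticed, so they describe the values and test nothing about the members.

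Per length of coding sequence, the order of the members differed between the groups. In *tra1Q3* cells at day 3 *ZRT1* led with 14000 ± 3639 normalized counts per kilobase, followed by *ZRC1* with 4998 ± 203, and *ZAP1* was last with 372 ± 9.74 (SD, n = 3 each). *ZPS1*, *ADH4* and *COT1* stood next to each other in the middle of that order and overlapped with their neighbours. In *TRA1* cells at day 3 *ZRT1* led with 77240 ± 3716, and *ADH4* with 33870 ± 9664 and *ZPS1* with 28700 ± 16760 came next and overlapped. *COT1* was last there with 2342 ± 58.3, and overlapped with *ZRG17*.

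At day 0 the highest member per length was *ZRC1* in *tra1Q3* cells, with 4688 ± 144 normalized counts per kilobase, and *ADH4* in *TRA1* cells, with 46980 ± 2965 (SD, n = 3 each). *ADH4* was the seventh of the members in *tra1Q3* cells, with 1347 ± 33.8, and *ZPS1* the eighth, with 1274 ± 3.93. *ZRC1* itself had nearly the same level per length in all groups, between 4688 in *tra1Q3* cells at day 0 and 5681 in *TRA1* cells at day 3.

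The 17 further genes that have been linked to Zap1 were split at day 3. Of these, 8 were called lower and 2 higher in *tra1Q3* cells, and 7 were not called, beside 15.6% lower and 16.4% higher among all genes tested. Their median log2 ratio was -0.75. *YOR387C*, an uncharacterized reading frame, averaged 183 ± 18.4 normalized counts in *tra1Q3* cells and 2254 ± 1604 in *TRA1* cells (SD, n = 3 each). Its log2 ratio was -3.52 (SE 0.55, adjusted p = 9.13e-04), and -2.83 without replicate 1 of *TRA1* cells. *DPP1*, a phosphatase of lipid phosphates in the vacuole membrane, averaged 669 ± 79.9 in *tra1Q3* cells and 4535 ± 2101 in *TRA1* cells, a log2 ratio of -2.67 (SE 0.37, adjusted p = 4.89e-04). *PIS1*, the phosphatidylinositol synthase, went the other way, with 7571 ± 360 in *tra1Q3* cells and 635 ± 99.5 in *TRA1* cells and a log2 ratio of 3.68 (SE 0.13, adjusted p = 3.00e-06). The other genes called lower were *ADE17*, *MNT2*, *RTC4*, *VEL1*, *RAD27* and *FET4*, between -2.61 and -1.15, and the other one called higher was the choline kinase *CKI1*, at 1.80.

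At day 0, 4 of the 17 genes met the limits as lower, beside 2.76% of all genes tested, and none as higher, beside 203 of 6126 genes. Their median was -0.54, and DESeq2 called 4. At an adjusted p of 0.05 or less with edgeR and no limit on the fold, 15 of the 17 stood lower and 2 higher. Among all 6126 genes 2067 stood lower and 2142 higher. *VEL1*, *YOR387C* and *ADE17*, which encodes an enzyme of purine synthesis, had the largest values. *VEL1* averaged 109 ± 20.3 normalized counts in *tra1Q3* cells and 912 ± 28.2 in *TRA1* cells (SD, n = 3 each), a log2 ratio of -3.07 (SE 0.10). The log2 ratios of *YOR387C* and *ADE17* were -3.03 (SE 0.06) and -2.38 (SE 0.06). The fourth was *NRG2*, at -1.37, which had -0.04 at day 3.

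The 4 zinc transporters and *IZH* relatives that are neither among the 10 members nor among the 17 further genes were not called on either day. Under scaling to library totals *MSC2* was called at day 3, at -1.19. At day 3 the log2 ratios were -0.90 for *MSC2*, -0.41 for *YKE4*, 0.41 for *IZH3* and -0.66 for *IZH4*. Of the 4, 3 had an unadjusted p under 0.05 with edgeR, beside 4588 of all 6208 genes, and DESeq2 called 0. At day 0 the values were 0.10 for *MSC2*, 0.93 for *YKE4*, -0.34 for *IZH3* and -0.97 for *IZH4*. The counts were again 3 and 0, beside 4341 of all 6126 genes with an unadjusted p under 0.05 with edgeR.

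Of the zinc-dependent alcohol dehydrogenases at day 3, *ADH2* was called lower like *ADH4*, *ADH3* was called higher, and *ADH1* and *ADH5* were not called. *ADH1*, the main enzyme of ethanol production, averaged 27547 ± 1538 normalized counts in *tra1Q3* cells and 29455 ± 4769 in *TRA1* cells at day 3 (SD, n = 3 each), and its log2 ratio of 0.00 (SE 0.14, adjusted p = 0.99) took either sign with the scaling. At day 0 *ADH1* averaged 398710 ± 6938 in *tra1Q3* cells and 182790 ± 7532 in *TRA1* cells, a log2 ratio of 1.13 (SE 0.05). *ADH2*, which oxidizes ethanol, had a log2 ratio of -3.51 (SE 0.23, adjusted p = 1.50e-05) at day 3 and 0.35 (SE 0.09) at day 0. The mitochondrial enzyme *ADH3* was at 1.87 (SE 0.18, adjusted p = 7.82e-05) at day 3 and 0.03 (SE 0.04) at day 0, where library totals gave -0.05, and *ADH5* at 0.55 and -0.91. *ADH1* and *ADH2* are close copies, with 90.5% of their 100-base stretches found once in the genome. The authors kept uniquely mapping reads, so reads or pairs that match both copies equally are not in these counts. Per length, the ratio of *ADH1* over *ADH4* at day 3 was 20.2 ± 1.09 in *tra1Q3* cells and 0.92 ± 0.47 in *TRA1* cells, where *ADH1* was the lower of the pair in replicates 1 and 3. At day 0 the ratio was 283 ± 2.92 in *tra1Q3* cells and 3.73 ± 0.38 in *TRA1* cells (SD, n = 3 each).

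**Figure D4:**
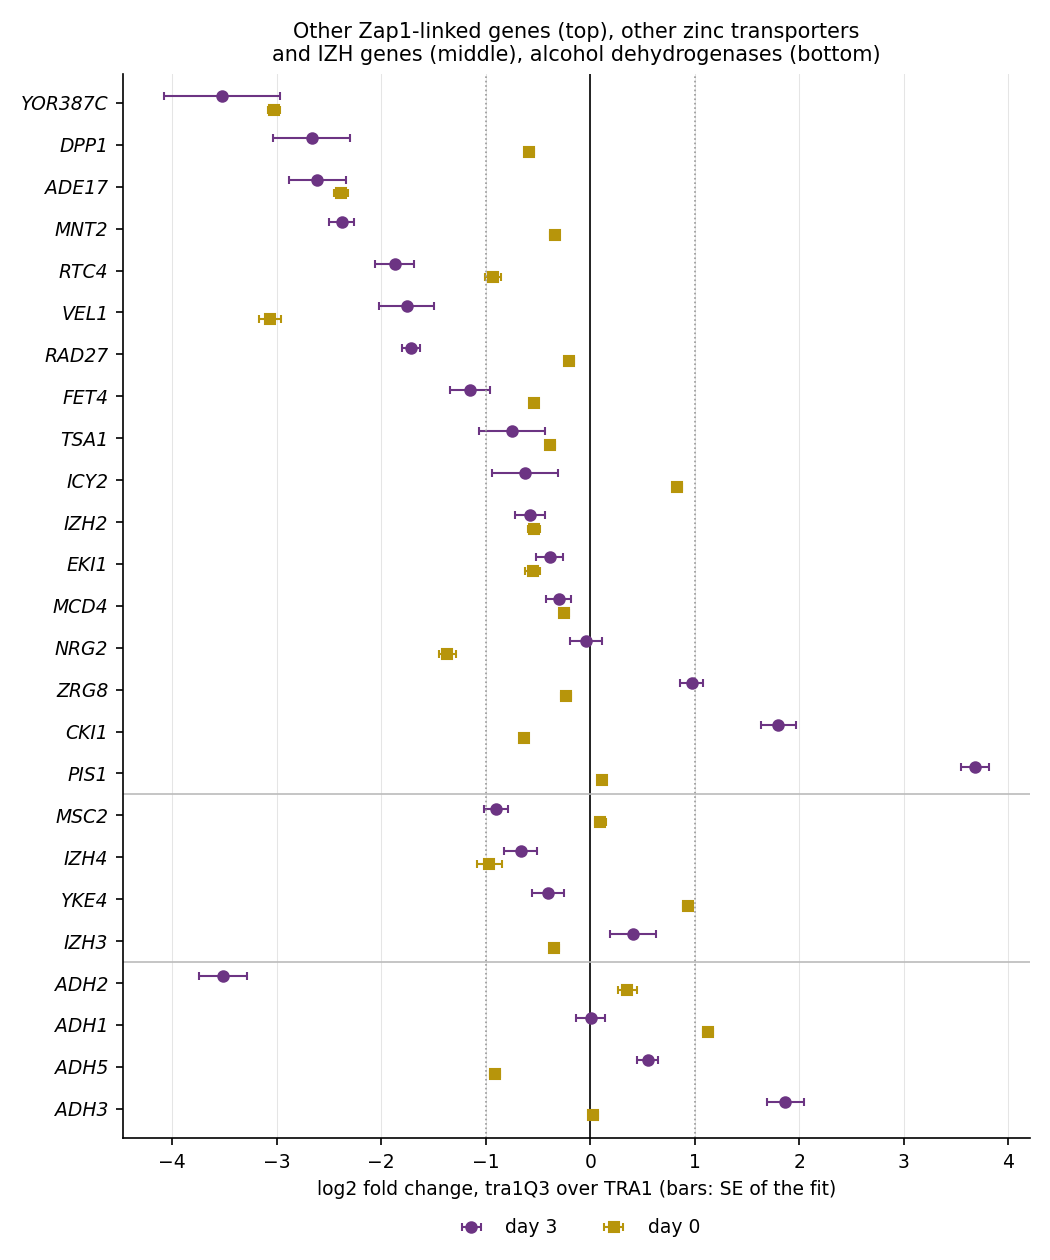
Log2 ratios of *tra1Q3* over *TRA1* cells at day 3 (circles) and day 0 (squares) for 17 other Zap1-linked genes, 4 zinc transporters or *IZH* relatives and 4 alcohol dehydrogenases, with SE of the fit as bars. Of the Zap1-linked genes at day 3, 8 lie beyond -1 and *CKI1* and *PIS1* lie beyond 1.

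*ADH4* and *ZRT1* are neighbours near the left end of chromosome VII, and the genes around them split by side. *MNT2*, a mannosyltransferase gene, and *VEL1*, both on the telomere side of *ADH4*, were lower in *tra1Q3* cells at day 3, with log2 ratios of -2.38 (SE 0.12, adjusted p = 5.38e-06) and -1.75 (SE 0.26, adjusted p = 7.14e-04). Both are also among the 17 further Zap1-linked genes, and the part of position was not tested. On the other side of *ZRT1*, the transcription factor gene *FZF1* was higher at 1.29 (SE 0.10, adjusted p = 3.36e-05), and so was *RTG2*, a regulator of the retrograde response, at 1.59 (SE 0.09, adjusted p = 8.70e-06). The hexokinase gene *HXK2*, at 0.90 (SE 0.10, adjusted p = 1.88e-04), was not called, nor was YGL258W-A beyond *VEL1*, at -0.84 (SE 0.24, adjusted p = 0.017). At day 0 *MNT2*, the gene next to *ADH4*, was at -0.34 (SE 0.04) and *FZF1*, next to *ZRT1*, at 0.43 (SE 0.10). Further out on the telomere side, *VEL1* was called lower at -3.07 (SE 0.10). Low values at that time were thus not limited to the pair, which had -5.12 and -3.63. YGL258W-A was also called lower, at -1.04 (SE 0.29), but on few normalized counts. These were 13.14, 24.67 and 12.27 in *tra1Q3* cells and 29.03, 34.86 and 37.53 in *TRA1* cells at day 0. *HXK2* was at -0.02 (SE 0.04) and *RTG2* at 0.37 (SE 0.04).

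**Figure D5:**
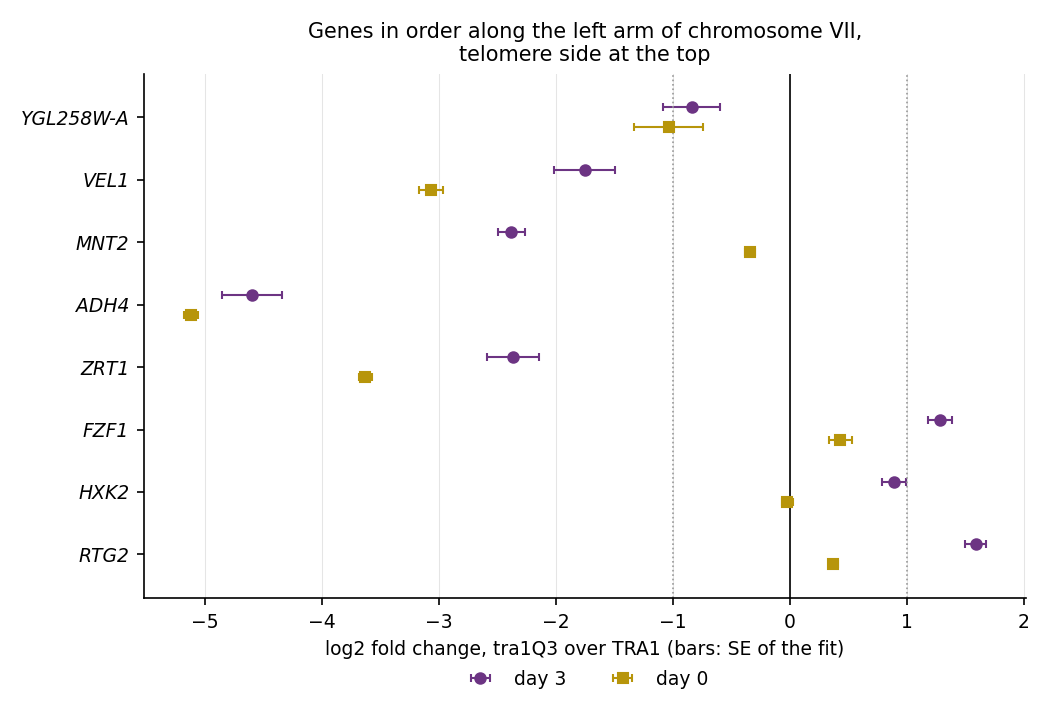
Log2 ratios of *tra1Q3* over *TRA1* cells at day 3 (circles) and day 0 (squares) for *ADH4*, *ZRT1* and the 3 genes on each side, in their order along chromosome VII, with SE of the fit as bars. At day 0 *ADH4* and *ZRT1* lie at -5.12 and -3.63, the adjoining *MNT2* and *FZF1* at -0.34 and 0.43, and *VEL1* and YGL258W-A, on the telomere side, at -3.07 and -1.04.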

How the data were processed

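Reads were trimmed by the authors (Trimmomatic) and mapped with STAR 2.5.4b to the R64 genome of S288C. The authors deposited raw counts of uniquely mapping reads per gene, made with featureCounts 1.6.0 on coding sequences with no strand option. Per the submitters' processing notes, DESeq2 1.26.0 was their test. Counts of read pairs and of single reads (12.5% to 18.1% of a library) were added here. An unnamed row with 0.0851% of the counts was left out.

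Genes that reached 10 counts in 3 or more of the fitted libraries were tested with edgeR 4.0.16 in R 4.3.3 (TMM, glmQLFit, glmQLFTest, Benjamini-Hochberg). The genotypes were compared within a day in its 6 libraries. Changes with age came from 1 fit of all 12 libraries. A call needed an adjusted p of 0.05 or less and a log2 ratio beyond 1, or beyond 2.5 for the difference in age change, in either direction. Normalized counts are counts scaled by TMM over all 12 libraries to the mean scaled library size, so ratios of means can differ from the fitted fold changes.

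The members and gene lists were chosen with earlier results of these data known. All members, the 3 further Zap1-linked genes of largest absolute value per genotype comparison, all listed transporters and alcohol dehydrogenases, the 3 neighbours on each side of *ADH4* and *ZRT1*, and the 5 genes most like *ZRT1* were named by rule. The further Zap1-linked genes named beyond that rule were chosen after their values were seen.

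Other settings tried were read pairs alone, no filter, scaling by library totals, by upper quartile or by the size factors of DESeq2, DESeq2 1.42.0 itself, a replicate block, 1 fit of all libraries, other limits, *tra1Q3* day 0 replicate 1 alone and each library left out in turn. The fits were tested on simulated data with the same spread in every group, which does not cover the uneven *TRA1* group of day 3. Promoters and stretches of 100 bases were read with Python 3.11.15, and all 6663 nuclear reading frames of the table were open at their coordinates in the R64 genome.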

Additional observations from a re-analysis of the deposited data

Results flagged for a closer look

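For 7 of the 10 zinc genes the change with age in *tra1Q3* cells and in *TRA1* cells lay more than 1 apart on the log2 scale in edgeR's fit of all 12 libraries, which singled them out. The difference, *tra1Q3* minus *TRA1* on the log2 scale, was -2.01 for *IZH1*, -1.95 for *ZRT2*, -1.63 for *ZAP1*, -1.57 for *ZRG17*, -1.04 for *ZRT3* and -1.03 for *COT1*. It was 1.17 for *ZRT1*, the one gene of the 7 with the larger step in *tra1Q3* cells. The fit shares the day 0 libraries with the comparison that brought the list forward, and 31.5% of all genes lay as far apart at an adjusted p of 0.05 or less, so the values are a description and not a test.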

How the results depend on the processing

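The number of members called at day 3 was 8, and it was 9 with library totals or with no limit on the fold, 6 at a log2 ratio beyond 2 and 8 under every other alternative, leaving out any library included. At day 0 it was 5 as reported, 8 with no limit on the fold and 3 at a log2 ratio beyond 2. For the difference in age change it was 0 at a score of 2.5 and 7 at a score of 1. For the change with age in *tra1Q3* cells it was 1, and 6 with no limit, and in *TRA1* cells 6, with 8 with no limit and 3 beyond 2. Leaving out any library left these counts at 5, 0, 1 and 6. Of the 7 members beyond a score of 1, 3 came within it under some alternatives. The values nearest to 0 were -0.99 for *COT1*, -0.90 for *ZRT3* and 0.99 for *ZRT1*. *ZAP1*, *ZRT2*, *ZRG17* and *IZH1* stayed below -1 in every alternative.

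*ZRC1* at day 3 turned to 0.0038 without replicate 3 of *TRA1* cells and ran down to -0.17 without other libraries. *NRG2* turned to 0.10 without that library and to 0.04 without replicate 3 of *tra1Q3* cells, with a lowest value of -0.11 when single libraries were left out and -0.33 with library totals. *ADH1* at day 3 turned to -0.31 with library totals, -0.017 with upper quartile scaling, -0.0023 without a filter, -0.016 with read pairs alone, -0.10 with all libraries in 1 fit and -0.0073 with the replicate block, and ran between -0.068 and 0.14 when single libraries were left out. The cause was not tested. Among genes outside the list, *TSA1* (-1.07) and *ZRG8* (1.08) were called at day 3 without replicate 2 of *TRA1* cells.

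The correlation of deviations from the group means between libraries with the same replicate number lay between -0.11 and 0.02. These values show no shared deviation, but they cannot say whether such libraries came from the same culture. The main fits did not use the numbers. At day 3 the numbers are 1, 2 and 3 in *TRA1* cells but 4, 2 and 3 in *tra1Q3* cells. A fit with the number as a replicate block therefore takes its day 3 genotype difference from the libraries numbered 2 and 3 alone. In fits of all 12 libraries, the library numbered 4 has no partner and adds nothing. With the block, 8 members were called at day 3, 5 at day 0, 0 for the difference in age change, 1 with age in *tra1Q3* cells and 6 in *TRA1* cells. The block moved *ZPS1* at day 3 to -3.60, *YOR387C* to -2.62 and *FET4* to -0.96, which lost its call, and 1995 in place of 1986 genes were called at day 3.

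Library totals moved the median of all genes at day 3 to -0.31 and the calls to 702 higher and 1463 lower, against 1018 and 968. They were the scaling that added *COT1* and, outside the list, *MSC2* (-1.19) and *TSA1* (-1.01). The median of all genes moved to 0.21 for the change with age in *TRA1* cells, and for the difference in age change to -0.26, against -0.15. Without a fold limit 4436 genes were called at day 3, 4209 at day 0, 5186 with age in *tra1Q3* cells and 5079 in *TRA1* cells. At an absolute value over 2 these were 501, 62, 1113 and 956, against 1986, 372, 2879 and 2490. The difference in age change had 1968 calls at a score of 1, against 273. The lowest normalized count of any member was 551.8, so counting error is small here, and the 3 libraries a group limit the precision.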

Other observations

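Over the 12 libraries, the genes outside the list whose log2 normalized counts were most like those of *ZRT1* were YBR053C (Pearson's r 0.99), *GPM2* (0.97), *CIM1* (0.97), *MDG1* (0.96) and *ADE17* (0.96) (genes averaging 100 or more normalized counts). These are descriptions over libraries that fall into 4 groups and share their scaling. *GPM2*, a homolog of phosphoglycerate mutase, averaged 587 ± 64.8 normalized counts in *tra1Q3* cells and 2210 ± 601 in *TRA1* cells at day 3, and 287 ± 27.9 in *tra1Q3* cells and 1246 ± 91.6 in *TRA1* cells at day 0 (SD, n = 3 each). *MDG1* averaged 2104 ± 121 in *tra1Q3* cells and 5684 ± 646 in *TRA1* cells at day 3, and 1084 ± 19.3 in *tra1Q3* cells and 2720 ± 107 in *TRA1* cells at day 0. Within the list, the r with *ZRT1* ran from 0.53 for *COT1* to 0.90 for *ZAP1*.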
